A study of Mus musculus with 12 samples.

Results

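The paired box family of the mouse, Pax1 to Pax9, was followed in embryoids and in control aggregates collected at day 7 (D7) and day 8 (D8). All 9 genes were taken by symbol from a gene table of 24946 rows, whatever their values, and all 9 had a row. The 12 libraries fell into 4 groups of 3: D7 controls, D7 embryoids, D8 controls and D8 embryoids. By their labels all of them came from E14TG2a, an embryonic stem cell line of the 129/ola strain. In all 4 groups an aggregate started from 100 cells was merged on day 3 with an aggregate started from 50 cells. In the embryoids the smaller aggregate had first been kept for 8 h in 10 ng/ml of BMP4, a signalling protein that ventralizes the early fish and frog embryo and that here made this aggregate a signalling centre. In the controls neither aggregate was treated. Each library was made from a pool of 12 embryoids or controls by the labels, and the study's methods give another pool size and another unit for BMP4. A library therefore averages many bodies, and the spread between libraries is the spread between pools.

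Pax proteins are transcription factors that bind DNA through a paired domain, which the paired box encodes. They are sorted by sequence into 4 classes: Pax1 and Pax9, Pax2 with Pax5 and Pax8, Pax3 and Pax7, and Pax4 and Pax6. In the embryo Pax1 and Pax9 mark sclerotome and pharyngeal pouches. Pax2, Pax5 and Pax8 act at the boundary of midbrain and hindbrain, and Pax2 and Pax8 also in kidney, ear and thyroid. Pax3 and Pax7 mark the dorsal neural tube, the neural crest and muscle precursors. Pax6 is required for the eye and patterns the forebrain, hindbrain and spinal cord, and Pax4 acts in the endocrine pancreas.

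Because the genes share the paired box, the part of it that is most alike among them is shown first, for the 5 genes with the largest differences or the highest levels. The stretches are the same 75 coding bases, the length of a sequencing read, aligned without gaps, from GENCODE vM21 transcripts on GRCm38. Capitals mark each base that equals the base of Pax3 at the same place.
Pax3: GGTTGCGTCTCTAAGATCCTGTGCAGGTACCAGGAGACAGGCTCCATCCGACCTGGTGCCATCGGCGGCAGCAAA
Pax7: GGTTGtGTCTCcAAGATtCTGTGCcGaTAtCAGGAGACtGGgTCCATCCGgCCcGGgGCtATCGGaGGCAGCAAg
Pax6: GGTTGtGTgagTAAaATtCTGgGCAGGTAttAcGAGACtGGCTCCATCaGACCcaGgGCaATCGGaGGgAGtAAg
Pax8: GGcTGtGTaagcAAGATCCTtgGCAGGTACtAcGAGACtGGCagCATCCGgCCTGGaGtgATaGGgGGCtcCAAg
Pax5: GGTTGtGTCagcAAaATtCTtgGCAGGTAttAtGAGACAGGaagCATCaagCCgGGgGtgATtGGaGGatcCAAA

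The Pax3 stretch lies in exon 2 at chr1:78195257-78195331 on the minus strand, and that of Pax7 in exon 2 at chr4:139830144-139830218, also on the minus strand. The Pax6 stretch lies in exon 7 at chr2:105684896-105684970 on the plus strand. Those of Pax8 (chr2:24443089-24444591) and Pax5 (chr4:44691984-44697547), both on the minus strand, each run across an intron, from exon 3 to 4 and from exon 2 to 3. Pax7 equalled Pax3 at 61 of the 75 bases, Pax6 at 55, Pax8 at 53 and Pax5 at 49. Between the coding sequences of 1 transcript each, the longest run shared by Pax3 and Pax7 was 26 bases. Over whole transcripts, no run of 75 bases was shared between any pair of Pax genes. A read without errors that lies inside these transcripts therefore could not fit a pair of Pax genes equally well. Some Pax transcripts do overlap genes on the other strand, over 6.30% of the distinct 75-base runs for Pax5, 3.57% for Pax8, 2.51% for Pax1 and 2.27% for Pax9, and the sources used here do not say whether the counting used strand. Of the genes at these overlaps that have a row, 5730488B01Rik (at Pax5) was listed at 0 in all 12 libraries, AI646519 (at Pax1) reached 1 and Slc25a21 (at Pax9) reached 2, and Pax6os1, an antisense transcript of Pax6, was listed at 0 throughout.

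The values are whole numbers with library sums of 997897 to 998433, taken here as TPM (transcripts scaled by length to a common total) after rounding by the authors. TPM is scaled by transcript length, so levels of different genes can be set side by side, but it keeps no sequencing depth, which is unknown. Rounding alone can move a value by 0.5, which is much of a value of 1 or 2. Markers of neural progenitors (Sox1, Sox2, Sox3 and Nes) were above 0 in all 12 libraries, and their summed TPM ran from 246 to 296 in the D7 controls, 56 to 104 in the D7 embryoids, 258 to 281 in the D8 controls and 88 to 121 in the D8 embryoids. Genes of cytosolic ribosomal proteins took 10.7 to 13.4% of the total in controls and 15.6 to 18.7% in embryoids, with the highest share in D7 embryoid replicate 2, the library with the lowest summed Pax level. Hprt, a purine salvage gene named here after its values were seen, was at 32 to 36 TPM in the 6 controls and at 0 or 1 in the 6 embryoid libraries. E14TG2a is generally described as lacking Hprt, and the submitters' library names begin with WT for the controls and with E14 for the embryoids. A difference of line or clone and the BMP4 treatment therefore cannot be told apart in any comparison of embryoids with controls below.

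Controls and embryoids were led by different Pax genes. Pax6 had the highest level of the family in every control library, and Pax3 the highest in every embryoid library. In the D7 controls the order by mean TPM was Pax6, Pax3, Pax7 and Pax5, and the ranges of these neighbours over the 3 libraries did not overlap. The D8 controls had the same order, in which the range of Pax5 (1 TPM) overlapped that of the next gene, Pax2. In the D7 embryoids Pax3 was followed by Pax6 and then by Pax8, Pax7, Pax1 and Pax9, and from Pax8 on neighbours overlapped. In the D8 embryoids the ranges of Pax3 (20 to 40 TPM) and Pax6 (15 to 22 TPM) overlapped, although Pax3 was the higher in each library.

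**Figure D1:**
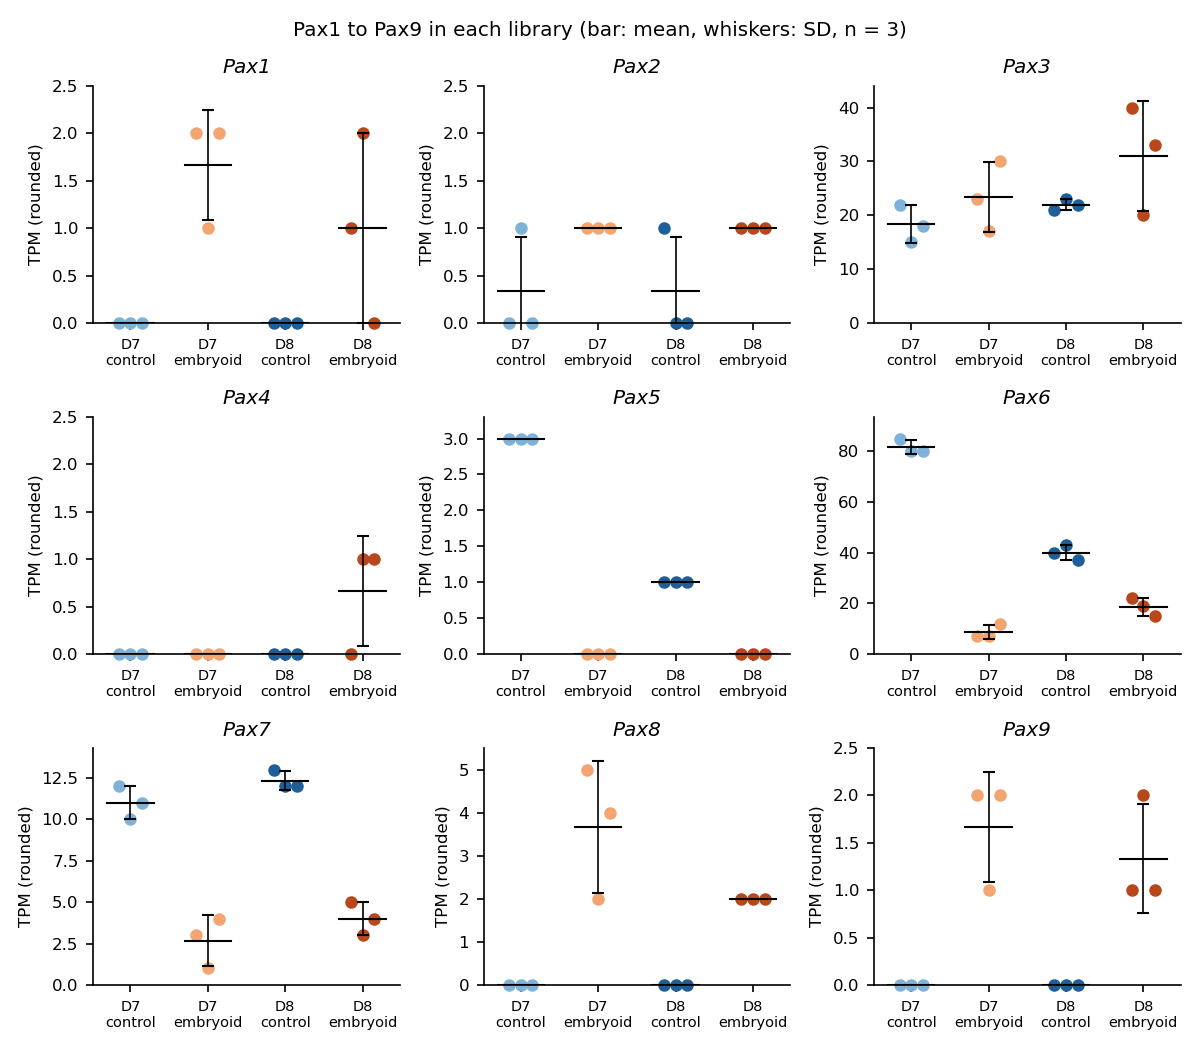
TPM (y axis, rounded by the authors) of Pax1 to Pax9 in the 4 groups (x axis), 1 point per library, with the mean (bar) and SD (whiskers) of 3 libraries; each panel has its own scale, from 0. Pax6 runs from 80 to 85 in the D7 controls and from 7 to 12 in the D7 embryoids, and Pax1, Pax8 and Pax9 are at 0 in all 6 controls.

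The sum over the family was 122, 109 and 112 TPM in the D7 controls and 43, 30 and 55 TPM in the D7 embryoids, with no overlap. At D8 it was 76, 79 and 72 TPM in the controls and 72, 50 and 57 TPM in the embryoids, so that one embryoid library reached the lowest control. The make-up of that sum also differed, and at D8 the shares of Pax6 and Pax3 separated the groups where the sum did not. A share is not moved by the scaling of a library, but the shares of a sum depend on each other. Pax6 made up 71.5% ± 1.86 (SD, n = 3) of the sum in the D7 controls and 20.5% ± 3.71 in the D7 embryoids. At D8 its share was 52.8% ± 1.53 in controls and 31.6% ± 5.91 in embryoids. Pax3 made up 16.0% ± 2.14 in the D7 controls against 54.9% ± 1.62 in the D7 embryoids, and 29.1% ± 1.46 against 51.2% ± 9.73 at D8. Neither gene's share overlapped between embryoids and controls of the same day. The TPM of Pax3 did overlap on both days (below), so its larger share in embryoids does not by itself show a higher Pax3 level. The day difference in the controls, where the Pax6 share was smaller at D8 than at D7 in every library, ran opposite to that in the embryoids, where it was larger.

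**Figure D2:**
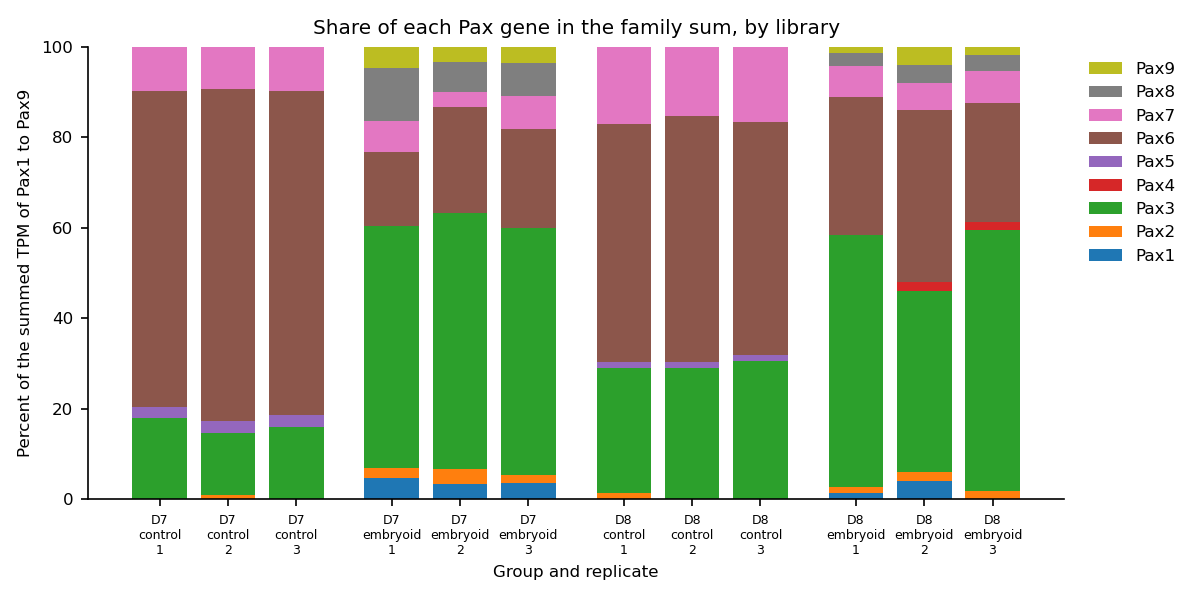
Percent of the summed TPM of Pax1 to Pax9 (y axis) taken by each gene in each of the 12 libraries (x axis, group and replicate). Pax6 takes 69.7 to 73.4% in the D7 controls and 16.3 to 23.3% in the D7 embryoids, where Pax3 takes 53.5 to 56.7%.

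Embryoids were compared with controls on each day, with the limit on line or clone given above. Values were fitted with limma on log2(TPM + 1) over 13751 genes whose mean exceeded 1 in some group. Calls needed an adjusted p (Benjamini-Hochberg) below 0.05 together with a log2 difference beyond 1 in either direction. Of the 9 Pax genes, 7 passed the filter on low values, and Pax2 and Pax4 did not. Pax1, Pax8 and Pax9 passed only because of their values in embryoids, and Pax5 only because of the D7 controls, so these 4 genes could hardly have come out otherwise. At D7, Pax1, Pax8 and Pax9 were higher in embryoids and Pax5, Pax6 and Pax7 lower, against 15.9% of all tested genes called in either direction (7.56% higher, 8.33% lower). At D8, Pax8 and Pax9 were higher and Pax6 and Pax7 lower, against 19.8% of all tested genes (10.2% higher, 9.61% lower). The median log2 difference of all tested genes was -0.20 on D7 and -0.18 on D8. With median-of-ratios scaling these medians became 0.01 and 0.02, and the calls over all genes became 1303 higher and 861 lower on D7, against 1040 and 1145 as deposited, and 1603 higher and 998 lower on D8, against 1398 and 1322. In pooled tissue, fewer cells of a type and less RNA of a gene per cell cannot be told apart.

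Pax6 had the largest difference in TPM. It was listed at 85, 80 and 80 TPM in the D7 controls and at 7, 7 and 12 TPM in the D7 embryoids. The groups lay far apart, with a control mean 9.42 times the embryoid mean. The log2 difference by limma was -3.14 (SE 0.18, adjusted p = 4.81e-08). At D8 Pax6 was at 40, 43 and 37 TPM in controls and 22, 19 and 15 TPM in embryoids, still without overlap. Embryoids lay wholly below controls for 42% of all tested genes at D7 and 48.3% at D8. The control mean of Pax6 at D8 was 2.14 times the embryoid mean, with a log2 difference by limma of -1.07 (SE 0.18, adjusted p = 0.000218). This D8 difference lay close to the fold threshold, and without D8 embryoid replicate 3 it was -0.93 and no longer called (adjusted p by limma 0.00127). It was also under the threshold with median-of-ratios scaling, at -0.87, and with quantile scaling, at -0.88.

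The day difference of Pax6 went opposite ways in the 2 conditions. In the embryoids Pax6 was higher at D8 than at D7 by 1.05 on the log2 scale (SE 0.18, adjusted p by limma 0.00207), and it was the only Pax gene called, against 2.66% of all tested genes (2.53% higher, 0.131% lower). In the controls it was lower at D8 by limma, with a log2 difference of -1.01 (SE 0.18, adjusted p = 0.00171), and again it was the only Pax gene called, against 2.73% of all tested genes (2.53% higher, 0.204% lower). Both day differences sat at the fold threshold. Without D7 embryoid replicate 1 or 2 the difference in embryoids was 0.93, and without D8 embryoid replicate 1 it was also 0.93, none of them called. With the embryoid libraries alone the difference in embryoids had an adjusted p of 0.104 by limma. In controls it was -0.98 without D7 control replicate 1 and -0.96 without D8 control replicate 3, neither of them called. The test of the change itself was the firmest of these: from D7 to D8 the embryoid-control difference of Pax6 moved by 2.06 (SE 0.25, adjusted p by limma 0.00106), against 2.51% of all tested genes called (1.61% higher, 0.894% lower). It was called in all 20 alternative fits, with values from 1.75 to 2.30.

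**Figure D3:**
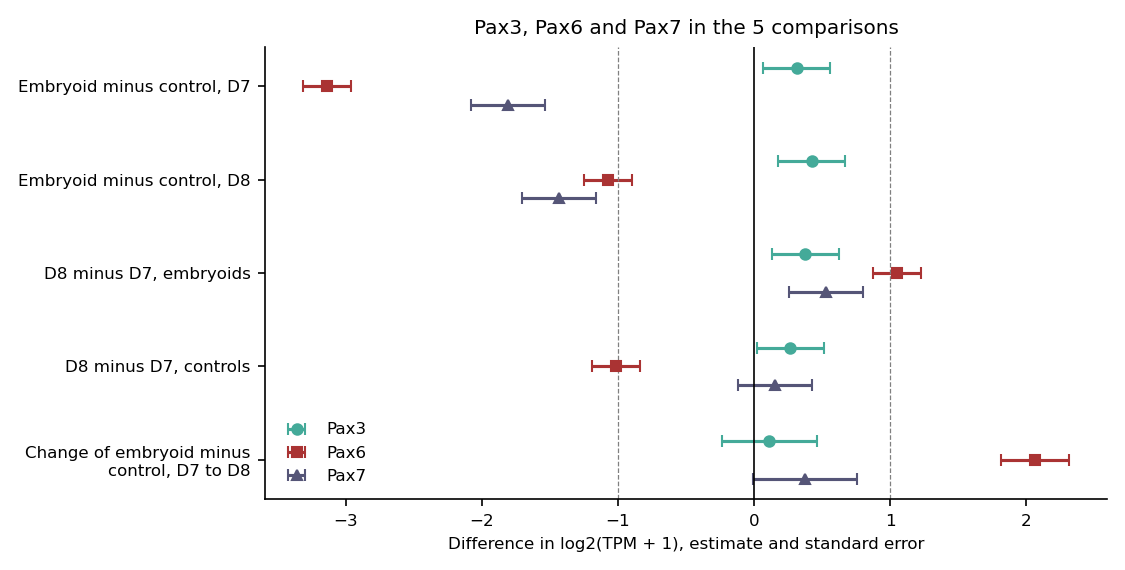
Difference in log2(TPM + 1) from limma (x axis, point: estimate, bar: standard error) of Pax3, Pax6 and Pax7 in the 5 comparisons (y axis), with dashed lines at the fold threshold. Pax6 lies at -3.14 at D7 and -1.07 at D8, whereas Pax3 stays between 0.11 and 0.42.

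Pax3 and Pax7, the pair of the same class, did not move alike. Pax7 was at 12, 10 and 11 TPM in the D7 controls and 3, 1 and 4 TPM in the D7 embryoids, and at 13, 12 and 12 TPM against 5, 3 and 4 TPM at D8. Pax7 was lower in every embryoid library than in every control, as 42% of all tested genes were at D7 and 48.3% at D8. The log2 difference by limma was -1.81 at D7 (SE 0.27, adjusted p = 0.000119) and -1.43 at D8 (SE 0.27, adjusted p = 0.000597). Pax3 was at 22, 15 and 18 TPM in the D7 controls and 23, 17 and 30 TPM in the D7 embryoids. At D8 it was at 21, 23 and 22 TPM in controls and 40, 20 and 33 TPM in embryoids. The groups overlapped on both days, and the log2 difference by limma was 0.31 at D7 (SE 0.25, adjusted p = 0.289) and 0.42 at D8 (SE 0.25, adjusted p = 0.152), neither called. The ratio of Pax3 to Pax7 within a library ran from 1.5 to 1.92 in the 6 controls and from 6.67 to 17.0 in the 6 embryoid libraries. The highest ratio, in D7 embryoid replicate 2, rests on a Pax7 value of 1. Neither gene was called between the days in either condition.

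Pax5 and Pax8, which share a class with Pax2, differed in direction. Pax5, which acts with Pax2 at the midbrain-hindbrain boundary and later in B cells, was at 3 TPM in each D7 control and 1 TPM in each D8 control, and was listed at 0 in all 6 embryoid libraries. It was called lower in embryoids at D7 (adjusted p by limma 8.61e-08, a difference of -3 TPM). At D8 its fitted difference lay exactly at the fold threshold and it was not called (adjusted p by limma 1.92e-05, a difference of -1 TPM). Pax8, which acts in thyroid, kidney and ear, was listed at 0 in all 6 controls. It was at 5, 2 and 4 TPM in the D7 embryoids and at 2 TPM in each D8 embryoid library, higher by 3.67 TPM at D7 (adjusted p by limma 4.17e-06) and by 2 TPM at D8 (adjusted p by limma 4.2e-05). Pax5 and Pax8 each passed the filter through 1 condition alone (above), so their direction was nearly fixed. The rounded Pax5 values were equal within every group, and Pax8 was at 0 in all controls. The standard errors behind these p-values can therefore be too small. Pax2 stayed at 0 or 1 TPM in all 12 libraries. It was 1 TPM in each of the 6 embryoid libraries and in 1 of 3 controls on each day, which does not separate the groups.

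Pax1 and Pax9 were low and were above 0 in embryoid libraries alone. Pax9 was at 2, 1 and 2 TPM in the D7 embryoids and 1, 2 and 1 TPM in the D8 embryoids, and was listed at 0 in all 6 controls. It was called higher at D7 (adjusted p by limma 0.000117, a difference of 1.67 TPM) and at D8 (adjusted p by limma 0.000324, a difference of 1.33 TPM). Pax1 was at 2, 1 and 2 TPM in the D7 embryoids and 1, 2 and 0 TPM in the D8 embryoids, and was also listed at 0 in all controls. It was called at D7 (adjusted p by limma 0.00291, a difference of 1.67 TPM) and not at D8, where the adjusted p by limma was 0.0351 with a difference of 1 TPM. Without D8 embryoid replicate 2 the D8 call of Pax9 was lost, its difference then lying exactly at the threshold (adjusted p by limma 0.00131). Without D8 embryoid replicate 3 Pax1 was called at D8 (adjusted p by limma 0.00069). Pax4 was listed at 0 in 10 libraries and at 1 TPM in D8 embryoid replicates 2 and 3. For genes at 0 in a whole group the model sees no spread there, so their standard errors can be too small.

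The summed neural progenitor markers were lower in embryoids than in controls on both days, as Pax6 and Pax7 were. The 3 abundant Pax genes were therefore also set against the sum of Sox1, Sox2, Sox3 and Nes in the same library. This measure was chosen after the values were seen and is given with no test. Pax6 was 27.0 to 34.6% of that sum in the D7 controls and 11.5 to 12.5% in the D7 embryoids. At D8 it was 14.2 to 16.4% in controls and 17.0 to 19.4% in embryoids. The D8 embryoids thus lay above the D8 controls on this measure, the reverse of their order in TPM, whereas at D7 the order was the same. Pax3 was 5.34 to 8.94% in the D7 controls and 28.8 to 38.3% in the D7 embryoids, and 7.47 to 8.78% against 20.4 to 37.5% at D8. Its groups overlapped in TPM and did not overlap here. Pax7 was 3.56 to 4.88% in the D7 controls and 1.79 to 5.00% in the D7 embryoids. At D8 its highest embryoid value, 4.55%, lay just under its lowest control value, 4.58%. The part of the neural markers in the differences of the Pax genes was not tested.

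**Figure D4:**
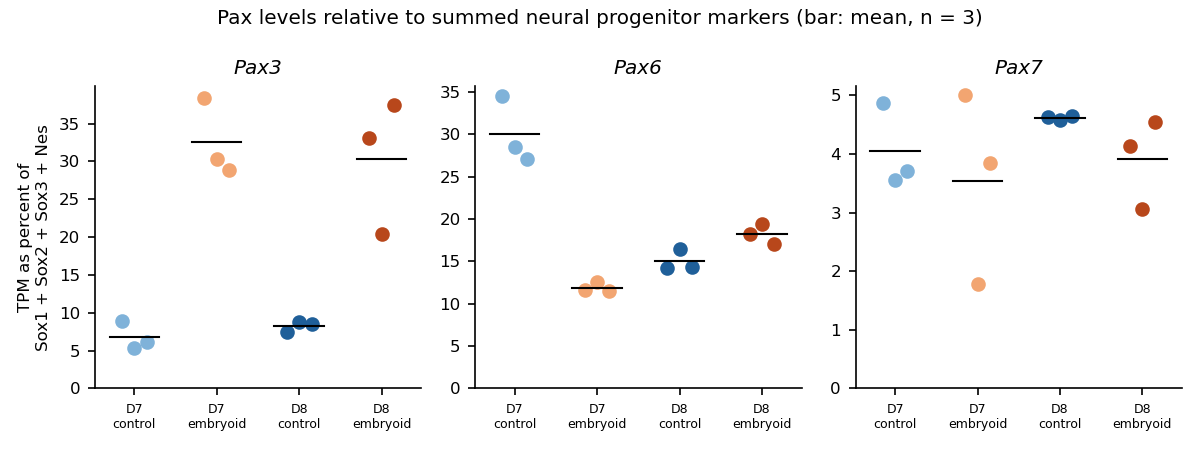
TPM of Pax3, Pax6 and Pax7 as percent of the summed TPM of Sox1, Sox2, Sox3 and Nes (y axis) in the 4 groups (x axis), 1 point per library and a bar at the mean of 3. Pax6 in the D8 embryoids (17.0 to 19.4%) lies above the D8 controls (14.2 to 16.4%), and Pax3 is higher in the embryoids on both days.

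Genes known to act with or beside the Pax genes were taken as lists and described by counts and medians. All list counts below stand beside the shares over all tested genes. These were 7.56% higher and 8.33% lower at D7, and 10.2% higher and 9.61% lower at D8. Of 14 genes of the eye field and forebrain, where Pax6 acts, 10 were tested, and 9 were lower in embryoids on each day and none higher. The median log2 difference was -2.89 at D7 and -3.78 at D8, beside -0.20 and -0.18 over all genes. Of the 10, 6 passed the filter on low values through the controls alone and could hardly have come out higher. Otx2, a gene of forebrain and midbrain, was at 299, 282 and 281 TPM in the D7 controls and 5, 3 and 3 TPM in the D7 embryoids (log2 difference by limma -5.98, adjusted p = 1.26e-10). Emx2, a gene of the dorsal forebrain, was at 107, 104 and 110 TPM in the D8 controls and 0, 1 and 0 TPM in the D8 embryoids. Mab21l2, an eye gene, was the one not called at D8, at 86, 81 and 84 TPM in controls and 38, 51 and 64 TPM in embryoids (log2 difference by limma -0.73, adjusted p = 0.00861).

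Genes of hindbrain and spinal cord progenitors, the other neural setting of Pax6, were mixed. Of 14, 12 were tested, 4 of them through the embryoids alone, with 3 higher, 3 lower and 6 not called at D7 and 3 higher, 4 lower and 5 not called at D8, and medians of 0.07 and 0.45. Olig3, which marks dorsal progenitors, was listed at 0 in all controls and was at 8, 9 and 12 TPM in the D7 embryoids and 27, 6 and 20 TPM in the D8 embryoids. Nkx6-1, a ventral progenitor gene, was listed at 0 in the controls and at 2 to 6 TPM in the embryoids. Fabp7, a radial glia gene, was at 584 to 750 TPM in the D7 controls and 95 to 168 TPM in the D7 embryoids (log2 difference by limma -2.50, adjusted p = 1.83e-06). Dbx1, of intermediate progenitors, was at 28 to 34 TPM against 14 to 16 TPM at D7 and missed the fold threshold (log2 difference by limma -0.998, adjusted p = 1e-05). All 5 neuron markers (Tubb3, Dcx, Stmn2, Elavl3 and Elavl4) were lower in embryoids on both days and higher at D8 than at D7 in both conditions. Of all tested genes, 2.53% were called higher at D8 in each condition. The summed TPM of the neuron markers was 853 to 902 and 1867 to 1977 in the D7 and D8 controls, and 112 to 198 and 258 to 539 in the embryoids. Of 8 markers of posterior neural tissue, 7 were higher in embryoids on each day, and these 7 were listed at 0 in all controls and could not have been lower.

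**Figure D5:**
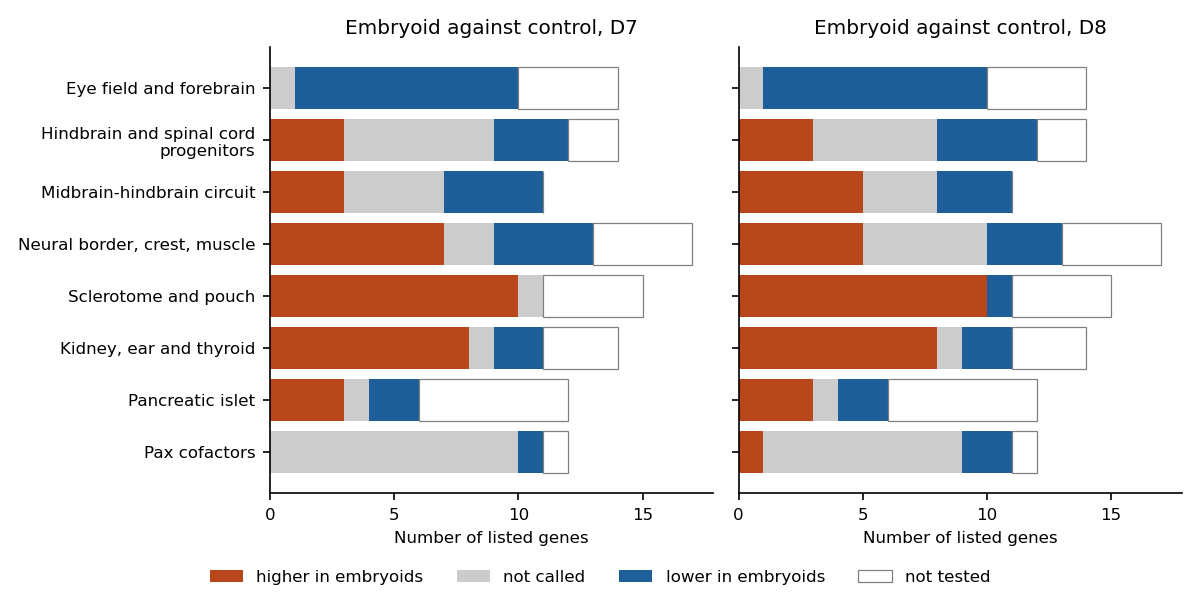
Number of listed genes (x axis) that were higher, lower or not called in embryoids against controls, or not tested, for 8 lists of genes that act with or beside Pax genes (y axis), at D7 (left) and D8 (right). The eye field and forebrain list holds 9 lower genes and none higher on each day, and the sclerotome and pouch list 10 higher genes on each day.

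The midbrain-hindbrain circuit, in which Pax2, Pax5 and Pax8 take part, held genes called in each direction. All 11 genes were tested, 3 of them through the embryoids alone and 2 through the controls alone, with 3 higher and 4 lower at D7 and 5 higher and 3 lower at D8. Gbx2, of the anterior hindbrain, was listed at 0 in all controls and was at 11, 8 and 12 TPM in the D7 embryoids. Otx2, its counterpart on the midbrain side, was lower (above). En1 and En2, homeobox genes of the boundary region named here after their values were seen, were at 1 or 2 TPM in the controls and listed at 0 in all 6 embryoid libraries, as Pax5 was. Fgf8, the signal of the boundary, was not called at D8, at 4, 4 and 3 TPM in controls and 2, 5 and 3 TPM in embryoids (adjusted p by limma 0.559). Wnt1 is another signal of the boundary, and the study also uses it as a marker of the dorsal neural tube. It was at 8, 7 and 6 TPM against 4, 5 and 6 TPM at D7 and at 3, 4 and 4 TPM against 21, 6 and 13 TPM at D8.

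Of 14 genes of kidney, ear and thyroid, where Pax2 and Pax8 act, 11 were tested, 7 of them through the embryoids alone and 1 through the controls alone, and 8 were higher and 2 lower on each day. Osr1, of the early kidney, was listed at 0 in all controls and was at 5 to 8 TPM in the embryoids. Lhx1, which also marks neurons, was lower, at 17, 15 and 17 TPM in the D8 controls and 1, 2 and 1 TPM in the D8 embryoids, as was Emx2 (above). Eya1, a gene of ear and kidney development, was at 6 TPM in each D8 control and 14, 13 and 12 TPM in the D8 embryoids, just under the fold threshold (log2 difference by limma 0.9975, adjusted p = 0.000176).

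Of 17 genes of the neural border, neural crest and muscle precursors, where Pax3 and Pax7 act, 13 were tested, 4 of them through the embryoids alone, with 7 higher and 4 lower at D7 and 5 higher and 3 lower at D8. Msx3, a gene of the dorsal neural tube, was at 0 or 1 TPM in the D7 controls and 16, 16 and 24 TPM in the D7 embryoids (log2 difference by limma 3.94, adjusted p = 1.05e-05). At D8 it was at 43, 13 and 33 TPM in embryoids, lowest in replicate 2, as Pax3 was. Zic1, of the neural plate border and dorsal neural tube, was lower, at 126 to 134 TPM in the D7 controls and 10 to 18 TPM in the D7 embryoids (log2 difference by limma -3.22, adjusted p = 3.58e-06). Sox9, of neural crest and cartilage, was lower at D7 and not called at D8, where it was at 10, 9 and 9 TPM in controls and 6, 5 and 6 TPM in embryoids (adjusted p by limma 0.000611, log2 difference -0.63).

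Of 15 genes of sclerotome, somite and pharyngeal pouch, where Pax1 and Pax9 act, 11 were tested, and 10 were higher in embryoids on each day, with median log2 differences of 2.44 and 1.97. Nkx3-2, Gcm2, Tbx1 and Tbx18 were too low to be tested, so the count does not cover them. Gcm2 was listed at 0 in every library. Nkx3-2 and Tbx18 reached 1 TPM in D8 embryoids alone, and Tbx1 was at 1 TPM in D7 embryoids alone. Of the 15 genes, 12 were listed at 0 in all 3 D7 controls and 13 in all 3 D8 controls, and 10 of the 11 tested passed the filter through the embryoids alone, so most had no room to be lower. Meox1, of the somite, was listed at 0 in the controls, at 100, 52 and 93 TPM in the D7 embryoids and at 20, 52 and 21 TPM in the D8 embryoids. Twist1, of mesenchyme, was at 12 to 18 TPM in the embryoids and listed at 0 in the controls. Uncx, which marks the posterior somite and also neural cells, was the exception, at 9, 8 and 9 TPM in the D8 controls and 2, 3 and 2 TPM in the D8 embryoids (log2 difference by limma -1.55, adjusted p = 1.83e-05). Markers of paraxial mesoderm summed to 3 to 11 TPM in the controls and 26 to 116 TPM in the embryoids, and those of endoderm to 7 to 16 TPM and 83 to 139 TPM. Their part in the values of Pax1, Pax8 and Pax9 was not tested.

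Of 12 genes of the pancreatic islet, where Pax4 and Pax6 act, 6 were tested, 3 of them through the embryoids alone and 1 through the controls alone, with 3 higher and 2 lower in embryoids on each day. Isl1, which is also used in motor neurons, was at 1 TPM in each control and 6 to 13 TPM in the embryoids. Neurod1, which is also used in neurons, was lower, at 7 TPM in each D8 control and 2, 1 and 1 TPM in the D8 embryoids. Of 4 B cell markers, set beside Pax5, only 1 was tested, and it was not called between embryoids and controls. Among 11 cofactors of Pax proteins, all tested, 10 were not called at D7 and 8 at D8, close to the shares of all tested genes (15.9% and 19.8% called). Tle1, a corepressor of the Groucho family, was lower on both days, at 40 to 47 TPM in the D7 controls and 7 to 10 TPM in the D7 embryoids (log2 difference by limma -2.28, adjusted p = 1.78e-08). Wdr5, a subunit of histone methyltransferase complexes, was at 142 to 148 TPM in all 6 D7 libraries (log2 difference by limma -0.02, adjusted p = 0.559).

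Of 20 protein-coding genes that lie nearest to a Pax gene or overlap one, 14 were tested, 5 were called on at least 1 day and 9 on neither. Over all tested genes 15.9% were called at D7 and 19.8% at D8. These are shares for single days, and the share called on at least 1 day is not given. The count of neighbours therefore cannot be read against them. Of the called neighbours, Foxa2 and Nkx2-9 passed the filter on low values through the embryoids alone, and Slc25a21 and Cacna1b through the controls alone. These genes could hardly have come out in the other direction. The Pax6 gene lies at chr2:105668896-105698410 (GRCm38). Rcn1, on one side of it, and Immp1l, on the other, were not called on either day. Elp4, which overlaps the end of Pax6, was at 10 TPM in each D7 control and 6, 4 and 6 TPM in the D7 embryoids, under the fold threshold (log2 difference by limma -0.81, adjusted p = 0.000159). Neither Melk nor Zcchc7, beside Pax5 (chr4:44524748-44710694), was called. Epha4, an ephrin receptor gene 586 kb from Pax3 (chr1:78101267-78197136), was lower in embryoids on both days, at log2 differences by limma of -1.001 and -1.03 (adjusted p = 0.000133 and 9.36e-05), whereas Pax3 was not called. Foxa2, 668 kb from Pax1 (chr2:147361930-147375049), was higher in embryoids on both days. Nkx2-9, 78.1 kb from Pax9 (chr12:56691693-56712824), was listed at 0 in the controls with means of 1 TPM at D7 and 1.33 TPM at D8 in the embryoids, and was called at D8. Slc25a21, which overlaps Pax9, was lower at D7, where it was at 1, 1 and 2 TPM in controls and listed at 0 in embryoids (adjusted p by limma 0.000102). Cacna1b, a calcium channel gene 128 kb from Pax8, was lower at D8 (log2 difference by limma -1.21, adjusted p = 0.000672).

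The genes whose levels were most like those of Pax6 across the 12 libraries were Abcb6, Mgll and Ring1 (Pearson r of 0.98 for each on log2(TPM + 1)). Mgll, which encodes a lipase of the endocannabinoid pathway, was at 11, 13 and 11 TPM in the D7 controls, 1 TPM in each D7 embryoid library, 7, 7 and 5 TPM in the D8 controls and 3, 2 and 2 TPM in the D8 embryoids. It thus had the same order of groups as Pax6. Gpsm2, Dtx4 and Rbmx were most like Pax7 (r of 0.99, 0.99 and 0.98), and Tvp23a, Eif3h and Ndufa4l2 most like Pax3 (r of 0.90, 0.90 and 0.88). After the group means were removed, Mapk11, Cpne5 and Neurod4 were most like Pax6 (r of 0.99, 0.98 and 0.97), and Boc and Dclk2 were among the 3 most like Pax7 (r of 0.98 for each). Pax3 and Pax7 had an r of -0.14 across the 12 libraries and of 0.83 after the group means were removed. These values describe libraries that share their scaling, and the genes were picked as the highest of all that were compared.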

How the data were processed

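RNA was sequenced from 3 libraries in each of 4 groups as single-end reads of 75 bp. Per the labels the reads were processed with STAR 2.6.1a, SAMtools 0.1.20, featureCounts and DESeq2, on mm10. The deposited values were treated as a score of inferred unit, whole numbers taken as TPM rounded by the authors, and are called TPM in the text. Depth is unknown, so no counting error is given. All value columns were used.

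Values were taken as log2(value + 1). One model of 4 group means was fitted over 12 libraries in limma 3.58.1 (R 4.3.3, statmod 1.5.0) with trended and robust variances, over 13751 genes with a group mean above 1, and p-values were Benjamini-Hochberg adjusted over all of them. A call needed an adjusted p under 0.05 and an absolute log2 difference above 1. Differences are rounded to 9 decimals, so that one exactly at the threshold is not called. This rounding was added after Pax5 at D8 was seen to be called through floating-point error. The script was tested on simulated data. Figures were drawn with matplotlib 3.10.9 under Python 3.11.15.

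The members and gene lists were chosen with earlier results of these data known. All Pax genes are named, with the 2 largest called differences of a list in each direction on each day, up to 2 abundant members not called, nearest neighbours and most similar genes. Not all genes this rule gives are named, which ones was decided after their values were seen, and some are not reported here. One listed cofactor, Tle5, was not matched to a row. The alternatives tried were other pseudocounts (0.5 and 5), other filters (none, or a group mean above 5), scaling by quantiles or by median-of-ratios, plain limma variances, calls by adjusted p alone, fits of the compared groups only, a block on the replicate number, and each library left out in turn.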

Additional observations from a re-analysis of the deposited data

Results flagged for a closer look

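The embryoid-control difference of Pax6 changed between the days by 2.06 on the log2 scale (adjusted p by limma 0.00106), with every embryoid library higher at D8 than at D7 and every control lower. In embryoids 17.7% of all tested genes lay wholly higher at D8, and in controls 15.3% lay wholly lower. A change of the embryoid-control difference was tested with limma for 69 genes given by the naming rule. Of them 8 were called, Pax6 and 7 others, beside 2.51% of all tested genes. Many of the 69 were named for large embryoid-control differences at D7 or D8 in these data, from which the change is computed. The count therefore cannot be read against that share. The change was 1.90 for Wnt1 (adjusted p by limma 0.0287), 1.13 for Sfrp2 (0.0253), 1.13 for Mab21l2 (0.0381) and 1.04 for Neurog1 (0.0173). It was -1.62 for Uncx (adjusted p by limma 0.00409), -1.59 for Msx2 (0.00327) and -1.06 for Tcf15 (0.0212). Wnt1 ranged from 6 to 21 TPM among the D8 embryoids.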

How the results depend on the processing

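No called difference of a Pax gene changed direction under any alternative that was run. Among differences that were not called, the change of the embryoid-control difference of Pax3 (0.11) became -0.02 without D7 control replicate 1, -0.09 without D7 embryoid replicate 2 and -0.10 without D8 embryoid replicate 1, and that of Pax7 (0.37) became -0.013 without D7 embryoid replicate 2. With 1 library left out, that of Pax3 ran from -0.10 to 0.39 and that of Pax7 from -0.013 to 0.65. The numbers of Pax genes called moved as follows. At a pseudocount of 5, no Pax gene was called higher at D7 (0), higher at D8 (0), lower at D8 (0), higher by day in embryoids (0) or lower by day in controls (0). With a group mean above 5, the genes higher at D7 and D8 numbered 0 and 0, since Pax1, Pax8 and Pax9 were no longer tested. Quantile scaling gave 1 higher at D8 and 0 by day in embryoids, and its 2 lower genes at D8 were Pax5 and Pax7, without Pax6. Median-of-ratios scaling gave 1 lower at D8, 0 by day in embryoids, 2 lower by day in controls and 2 for the change. A pseudocount of 0.5 and no minimum fold each gave 2 lower by day in controls and 2 for the change, Pax5 being added to Pax6, and each gave 3 higher and 3 lower at D8, where Pax1 and Pax5 were added. With the compared groups alone, 0 were called by day in embryoids. Leaving out 1 library gave 1 to 3 higher and 1 to 2 lower at D8, 0 to 1 higher by day in embryoids and 0 to 1 lower by day in controls. The cause was not tested where none is named.

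Over 18 pairs of libraries with the same replicate number in different groups, the correlation of deviations ran from -0.19 to 0.08, which gave no sign of pairing. With 3 libraries in a group, it cannot show that libraries of the same number were made apart. With the replicate number as a block the counts were 3 higher and 3 lower at D7, 2 and 2 at D8, 1 higher by day in embryoids, 1 lower by day in controls and 1 for the change. Over all genes at D7, a pseudocount of 5 gave 472 higher and 551 lower, and no minimum fold 2806 higher and 6160 lower, against 1040 and 1145. Values of 1 or 2 are limited by the rounding, and the calls of Pax1, Pax5, Pax8 and Pax9 rest on such values or on 0 in one condition.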
